A study of Homo sapiens with 32 samples.

Results

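The 9 genes described here, 8 encoding S100 calcium-binding proteins (S100A2, S100A4, S100A6, S100A10, S100A11, S100A13, S100A14 and S100A16) and 1 encoding annexin A2 (ANXA2), were measured through RNA-seq libraries of HCT116 cells, an established human colorectal carcinoma line. The 9 rows were taken by symbol from the 60660 gene rows of the count table, and all 9 held enough reads to be tested in every comparison. The set was chosen by measured values of these data, namely a higher S100A10 level in the IGF2BP3 than in the IGF2BP2 knockout libraries. That contrast is therefore described below without a test, and the contrasts of either knockout with the parental cells share libraries with it.

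The study removed IGF2BP3 or IGF2BP2, RNA-binding proteins of the insulin-like growth factor 2 mRNA-binding family, and exposed the cells to tunicamycin, which blocks N-linked glycosylation and so causes stress in the endoplasmic reticulum (ER). All cells, the parental ones included, carried the inducible plant F-box gene (tetON OsTIR1, genotype Tet-OsTIR1-PURO). Each knockout was represented by 3 lines that each grew from 1 FACS-sorted cell after transient transfection with Cas9 and a guide: A3, D12 and E4 for IGF2BP3, and B7, F6 and G6 for IGF2BP2. There were 6 groups and 32 libraries of poly(A) RNA: 4 parental libraries with DMSO and 4 with tunicamycin (2 parental samples with 2 replicate libraries each), and 6 libraries per treatment for each knockout (3 clones with 2 replicates each). Tunicamycin was given to the parental and IGF2BP3 knockout cells at 5 µg/mL for 4 hours, against DMSO at the same dilution. The labels state no dose or time for the IGF2BP2 knockout clones. The 2 control libraries of clone G6 are titled as controls while their treatment field says tunicamycin. They were placed by their title, and HSPA5, a chaperone gene induced by ER stress, stood at 999.6 and 816.2 CPM (counts scaled to library size) in them against 9624 and 9817 CPM in the tunicamycin libraries of the same clone. Nothing in the labels says that replicate libraries came from separate cultures, so the p-values below measure the spread between these libraries, which may be technical.

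S100 proteins are small EF-hand proteins that mostly work as dimers: calcium binding exposes a surface that grips a target protein. S100A10 is the exception that cannot bind calcium. It instead pairs with annexin A2, a calcium-dependent phospholipid-binding protein, in a heterotetramer that sits at the inner face of the plasma membrane and, at the cell surface, takes part in plasminogen activation. S100A4 and S100A6 are widely studied in carcinoma cells for motility and proliferation, S100A11 binds annexin A1, and S100A14 and S100A16 are typical of epithelia.

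The guides are shown because some clones share one and others do not, which is used below to read the differences between clones. Each is given with the 3 genomic bases that follow the target (the PAM) in capitals. The guide of clones E4 and A3 lies in exon 11 of 15 of IGF2BP3 (chr7:23319200-23319219, plus strand, GRCh38) and that of D12 in exon 1 (chr7:23469990-23470009, plus strand). Those of F6 and B7 and of G6 both lie in exon 1 of 15 of IGF2BP2 (chr3:185824895-185824914 and chr3:185824837-185824856, plus strand).
IGF2BP3 clones E4 and A3: tggcaccgactgatagagctGGG
IGF2BP3 clone D12: acgcgtagccagtcttcaccAGG
IGF2BP2 clones F6 and B7: gagctgccggaggtcgtcggCGG
IGF2BP2 clone G6: aggcgtagccggacttcagcAGG
No stretch of the 9 genes' transcripts or promoter windows that is followed by NGG matched any of the 4 guides with fewer than 7 mismatches.

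The 8 S100 genes lie in the S100 cluster of chromosome 1q21 and all read from the minus strand, as does ANXA2 on chromosome 15. In GENCODE 29 on GRCh38 the genes of the cluster are S100A10 (chr1:151982915-151994390), S100A11 (chr1:152032506-152047907), S100A6 (chr1:153534599-153536244), S100A4 (chr1:153543613-153550136), S100A2 (chr1:153561108-153567890), S100A16 (chr1:153606886-153613145), S100A14 (chr1:153614255-153616986) and S100A13 (chr1:153618787-153631360). ANXA2 spans chr15:60347134-60402883. S100A16 and S100A14 are separated by 1109 bases, S100A14 and S100A13 by 1800, and S100A11 from S100A6 by 1486691. S100A3 overlaps S100A4 on the same strand (mean 64.4 counts) and S100A1 overlaps S100A13 on the opposite strand (mean 21.8 counts). The strand setting of the authors' counting is not given in the sources used here, so reads of the overlapping parts cannot be assigned with certainty. ANXA2 also has a near-identical processed copy, ANXA2P2 (mean 511 counts), and is uncertain to that extent.

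The promoters of 4 members are shown: S100A10, whose level chose the set, its partner ANXA2, and S100A14 and S100A4, which varied most between lines. Each is the 250 bases before the RefSeq transcript start on GRCh38.p14, 5′ to 3′ on the gene's strand, with motif matches in capitals. All 9 genes matched a RefSeq entry, with 13 windows in all. The motifs searched on both strands were the TATA box (TATAAA, in 10.7% of 35114 such windows of all genes), the GC box (GGGCGG, 42.6%), the CCAAT box (CCAAT, 32%), the AP-1 site (TGANTCA, 6.57%), a STAT site (TTCNNNGAA, 6.57%), the CHOP and ATF4 composite site (TGATGNAAT, 0.889%) and the ER stress response element (0.074%, which contains the CCAAT box). The windows are chr1:151993860-151994109 for S100A10, chr15:60397987-60398236 for ANXA2, chr1:153545807-153546056 for S100A4 and chr1:153616326-153616575 for S100A14, all on the minus strand.
S100A10: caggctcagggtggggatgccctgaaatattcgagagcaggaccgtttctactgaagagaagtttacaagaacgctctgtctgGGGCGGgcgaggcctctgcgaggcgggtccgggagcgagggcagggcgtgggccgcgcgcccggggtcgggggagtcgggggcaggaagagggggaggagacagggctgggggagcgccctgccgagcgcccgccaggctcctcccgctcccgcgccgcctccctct
ANXA2: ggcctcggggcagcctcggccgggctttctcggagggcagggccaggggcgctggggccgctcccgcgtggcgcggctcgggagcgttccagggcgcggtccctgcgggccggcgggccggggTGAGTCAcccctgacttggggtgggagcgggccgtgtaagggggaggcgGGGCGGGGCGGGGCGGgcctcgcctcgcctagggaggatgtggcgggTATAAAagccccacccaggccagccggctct
S100A4: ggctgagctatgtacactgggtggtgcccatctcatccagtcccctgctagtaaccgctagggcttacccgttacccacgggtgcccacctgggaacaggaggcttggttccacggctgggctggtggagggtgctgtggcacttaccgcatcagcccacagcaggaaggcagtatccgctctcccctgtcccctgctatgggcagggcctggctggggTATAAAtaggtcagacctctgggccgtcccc
S100A14: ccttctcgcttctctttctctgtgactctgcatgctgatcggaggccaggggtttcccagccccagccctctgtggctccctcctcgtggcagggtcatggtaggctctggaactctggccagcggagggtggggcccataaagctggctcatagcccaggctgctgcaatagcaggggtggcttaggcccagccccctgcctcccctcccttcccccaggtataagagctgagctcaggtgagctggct
The S100A10 window (71.2% G and C, against a median of 58% over all windows) holds 1 GC box, 167 bases before the start. The ANXA2 window (78%) holds a TATA box 31 bases before the start, GC boxes at 78, 73 and 68 bases and an AP-1 match at 127 bases. The S100A4 window holds a TATA box at 31 bases, and the S100A14 window holds none of the 7 motifs. A match describes the letters only.

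Total counts ran from 16651438 to 24913021 per library (median 21441775.5). In DMSO, IGF2BP3 stood at 76.7 ± 7.22 CPM in parental cells (SD, n = 4) and at 27.7 ± 10.8 in its knockout (n = 6), with clone means of 21.3 in A3, 41.5 in D12 and 20.2 in E4. IGF2BP2 stood at 176 ± 19.9 CPM in parental cells and at 86.9 ± 5.33 in its knockout. Neither knockout thus removed the transcript, and the protein was not measured. HSPA5 rose from a mean of 979 to 9947 CPM with tunicamycin in parental cells. All 6 epithelial markers were at 1 CPM or more, as was 1 of 3 colonic markers (CDX2). Among markers of other cells, 1 of 5 for fibroblasts (COL1A1), 0 of 4 for leukocytes and 0 of 3 for endothelium reached that level. The libraries also differed by replicate number: 21259 to 23139 genes were detected in replicate 1 libraries and 23423 to 24267 in replicate 2.

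Per kilobase of annotated exon, S100A6 stood highest of the 9 genes, at 425 ± 66.6 CPM per kb (SD over 32 libraries). ANXA2 followed at 152 ± 14.1 and S100A4 at 115 ± 30.5. The length used is the union of all annotated exons of a gene, 971 bases for S100A6 and 8824 for ANXA2. Without division by length ANXA2 stood higher, at a mean of 1339 CPM against 413 for S100A6. The order of these genes thus depends on the length used, and which transcript was more abundant is not settled. The next genes lay close together: S100A16 at 85.6 ± 14.4, S100A11 at 84.7 ± 13.6 and S100A10 at 80.6 ± 16.7 differed by less than their spread, and S100A14 at 46.9 ± 30.0 had the widest spread for its level. S100A2, at 5.23 ± 0.993, and S100A13, at 1.24 ± 0.331, were low. S100A13 rests on 20 to 91 counts per library, which leaves its fold changes imprecise. In bulk RNA a lower level in fewer cells and a lower level in each cell cannot be told apart.

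**Figure D1:**
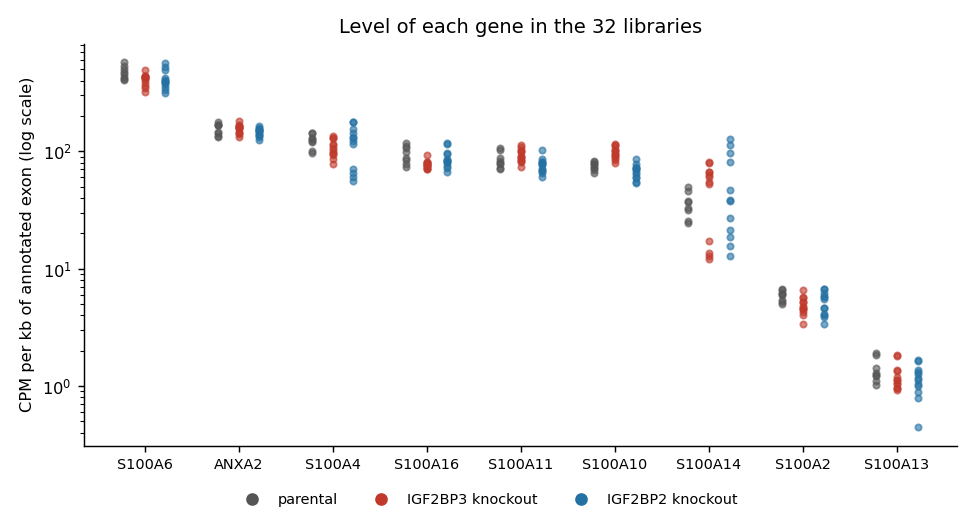
Level of each gene in CPM per kb of annotated exon (log axis), 1 point per library, coloured by genotype over both treatments (8 parental, 12 IGF2BP3 knockout and 12 IGF2BP2 knockout libraries). On this scale, which divides by the union of all annotated exons, S100A6 stands highest and S100A13 lowest. S100A10 is higher in the IGF2BP3 knockout libraries, and S100A14 spreads most within each knockout.

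S100A10, the annexin A2 light chain, was higher in every IGF2BP3 knockout library than in every parental library of the same treatment. In DMSO the parental libraries held 127, 114, 124 and 119 CPM (sample 1 replicates 1 and 2, then sample 2), a mean of 121 ± 5.85 (SD, n = 4). The IGF2BP3 knockout libraries held 159 and 140 CPM in A3, 153 and 147 in D12, and 177 and 173 in E4 (158 ± 14.3, n = 6). The lowest knockout library thus lay above the highest parental one. The log2 difference was 0.38 (SE 0.0603, edgeR quasi-likelihood test, Benjamini-Hochberg adjusted p = 0.00553), and it was 0.37 within replicate 1 and 0.39 within replicate 2. Because these knockout libraries entered the contrast that chose the gene, this p and the lack of overlap are no independent evidence of a difference. S100A10 was the 1 of 9 genes called, where 1.61% of 14568 genes tested were called and 0.515% were called higher. It was likewise the 1 of 9 with no overlap, a state that 1.82% of 12723 genes at 1 CPM or more reached in the higher direction. The call was lost when all 32 libraries were fitted together (adjusted p = 0.0564) and when counts were summed per line (adjusted p = 0.0719). It was kept in the edgeR fit without any 1 clone or parental library.

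With tunicamycin S100A10 kept the same size of difference. The parental libraries held 110, 101, 120 and 107 CPM (110 ± 8.02), and the IGF2BP3 knockout libraries 159 and 122 in A3, 135 and 129 in D12, and 173 and 143 in E4 (143 ± 19.3). The groups again did not overlap, as for 1.12% of genes in that direction. The log2 difference was 0.39 (SE 0.0856), with an edgeR adjusted p of 0.0628 that missed the threshold. No member was called here (0 of 9 in edgeR, where 0.718% of 14626 genes were), 4 of 9 had an unadjusted p under 0.05, and DESeq2 called 2 of 9, S100A10 (adjusted p = 0.00277) and S100A16 (0.0469). Within replicates 1 and 2 the S100A10 difference was 0.43 and 0.33. These knockout libraries also entered the contrast that chose the gene, so the same limit holds for S100A10 here.

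S100A10 in the IGF2BP2 knockout had a lower mean than in parental cells, but clone B7 was not lower, and the difference did not pass the test. In DMSO the libraries held 133 and 120 CPM in B7, 109 and 97.9 in F6, and 113 and 93.0 in G6 (111 ± 14.5, n = 6). With tunicamycin they held 109 and 111, 102 and 91.0, and 85.2 and 82.9 CPM (97.0 ± 12.3). These ranges overlapped the parental ones, and the log2 differences were -0.13 (adjusted p = 0.983) and -0.16 (adjusted p = 0.695). In this comparison edgeR and DESeq2 called 0 of 9 members in either treatment, and 0 of 9 had an unadjusted p under 0.05. Over all genes 0.0137% of 14564 were called in DMSO and 0.00694% of 14419 with tunicamycin. Both knockouts were compared with the same parental libraries.

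The contrast that chose the set is given as a description. S100A10 differed between the knockouts by a log2 of 0.52 in DMSO and 0.56 with tunicamycin. The lowest IGF2BP3 knockout library (140 CPM in DMSO, 122 with tunicamycin) lay above the highest IGF2BP2 knockout library (133 and 111). Within replicates 1 and 2 the difference was 0.47 and 0.57 in DMSO and 0.65 and 0.47 with tunicamycin. Over all genes, 0.589% were called in this contrast in DMSO and 0.391% with tunicamycin, and 0.534% and 0.637% did not overlap in the higher direction. Of the other members, S100A11 had the next largest value, at 0.27 and 0.28, and its libraries overlapped. ANXA2 stood at 0.09 and 0.11.

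ANXA2, which encodes the partner of S100A10 in the tetramer, did not pass the test in either knockout. In DMSO its levels were 1324 ± 174 CPM in parental cells, 1355 ± 108 in the IGF2BP3 knockout and 1279 ± 134 in the IGF2BP2 knockout. With tunicamycin they were 1395 ± 137, 1401 ± 133 and 1294 ± 68.5 CPM. The log2 differences from parental cells were 0.03 and 0.01 for the IGF2BP3 knockout and -0.05 and -0.09 for the IGF2BP2 knockout. ANXA2 was also among the steadier members over the 8 lines: the highest line mean, 1479 CPM in E4, was 1.20 times the lowest, 1235 in F6, and the median gene of 8838 had a ratio of 1.19.

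**Figure D2:**
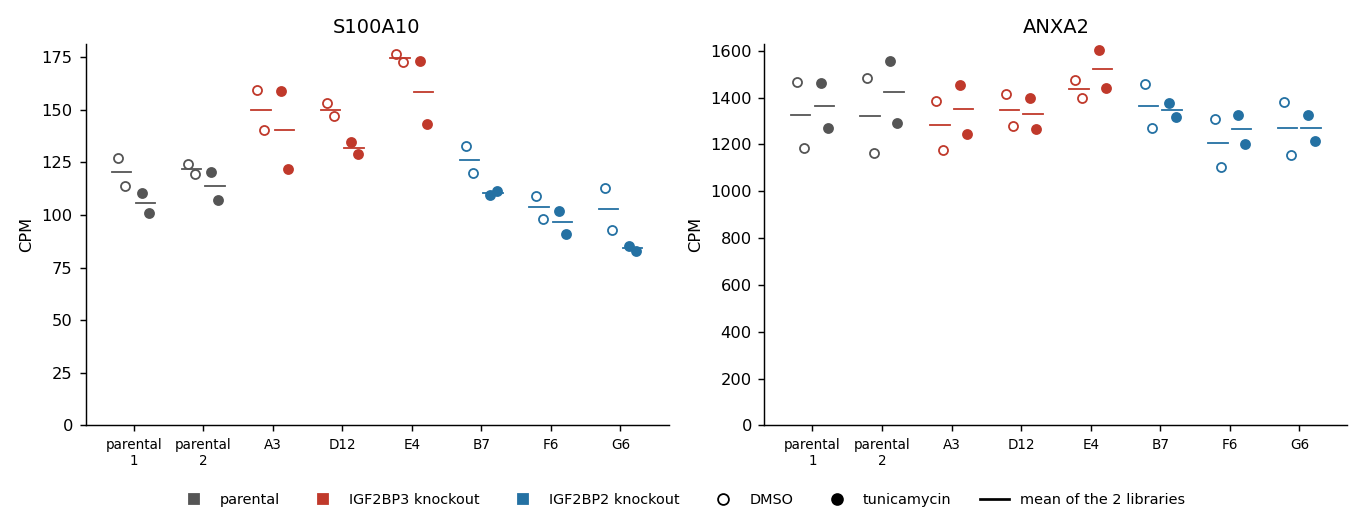
S100A10 and ANXA2 in each library (CPM) by line, with open points for DMSO, filled points for tunicamycin and lines at the mean of 2 libraries. Every IGF2BP3 knockout library of S100A10 lies above the parental libraries of its treatment, and clones F6 and G6 lie lowest. The ANXA2 levels of the genotypes overlap, but every E4 library lies above every F6 and G6 library.

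The other 7 S100 genes did not pass the edgeR test between either knockout and parental cells. In the IGF2BP3 knockout S100A4, S100A14 and S100A16 passed under some other settings. S100A16 was lower in the IGF2BP3 knockout by a log2 of -0.24 in DMSO (SE 0.0796, adjusted p = 0.163) and -0.33 with tunicamycin (SE 0.0889, adjusted p = 0.143). In DMSO this difference was -0.41 within replicate 1 and -0.04 within replicate 2, and with tunicamycin it was -0.41 and -0.25. With tunicamycin S100A16 passed by DESeq2 (adjusted p = 0.0469) and by edgeR without the filter (0.0449) or with the replicate block (0.00565). In DMSO it passed by edgeR without the filter (0.0219). The share of all genes called under these settings is not given here. S100A4 stood at -0.26 (adjusted p = 0.224), S100A6 at -0.17 (0.288) and S100A11 at 0.17 (0.255) in DMSO in the IGF2BP3 knockout. S100A2 stood at -0.14 in DMSO and -0.40 with tunicamycin (adjusted p = 0.257). Several of these DMSO values in the IGF2BP3 knockout were not alike in the replicate 1 and replicate 2 libraries: they were -0.38 and 0.09 for S100A2, -0.38 and -0.15 for S100A4, -0.31 and -0.04 for S100A6, and 0.03 and 0.39 for S100A14. For ANXA2 they were -0.05 and 0.13. The median over the 9 members was -0.06 in DMSO and -0.13 with tunicamycin in the IGF2BP3 knockout, beside medians of 0.00 and 0.01 over all genes tested. For the IGF2BP2 knockout these medians were -0.08 and -0.16, with 0.00 and 0.00 over all genes.

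S100A14, an S100 protein typical of epithelia, varied most between lines. In DMSO it held 47.3, 31.1, 47.8 and 32.3 CPM in the parental libraries. The IGF2BP3 knockout clones held 76.5 and 67.5 CPM (A3), 85.3 and 69.2 (D12) and 17.5 and 15.5 (E4). The IGF2BP2 knockout clones held 49.2 and 34.8 (B7), 143 and 103 (F6) and 23.8 and 16.3 (G6). In both knockouts, then, some clones lay above and others below the parental range, and the replicates of a clone stayed together. Over both treatments the highest line mean, 133 CPM in F6, was 7.47 times the lowest, 17.8 in E4, and 0.0792% of 8838 genes had a larger ratio. The clones of the IGF2BP3 knockout differed (greatest log2 span 2.24, edgeR F test, adjusted p = 1.35e-08), and so did those of the IGF2BP2 knockout (2.60, adjusted p = 5.14e-08). Without E4 the remaining IGF2BP3 clones did not (adjusted p = 0.983).

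S100A14 differed between clones made with the same guide. A3 and E4 were made with the same guide and differed by a log2 of 2.21 (adjusted p = 8.97e-07), while A3 and D12, made with different guides, differed by 0.04 (adjusted p = 0.983). B7 and F6 share a guide and differed by 1.48 (adjusted p = 1.50e-05). This spread is also what the knockout comparison of S100A14 rests on. Its mean difference from parental cells in DMSO was 0.48 in the IGF2BP3 knockout (SE 0.397, adjusted p = 0.689), and without clone E4 it was 0.91 (adjusted p = 0.00271). With tunicamycin the value without E4 was 0.86 (adjusted p = 0.0213). E4 was the line lowest in S100A14, so leaving it out had to raise the difference. These p-values are therefore no evidence of a knockout effect. For the IGF2BP2 knockout the mean difference was 0.63 in DMSO, and it was -0.36 without clone F6.

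**Figure D3:**
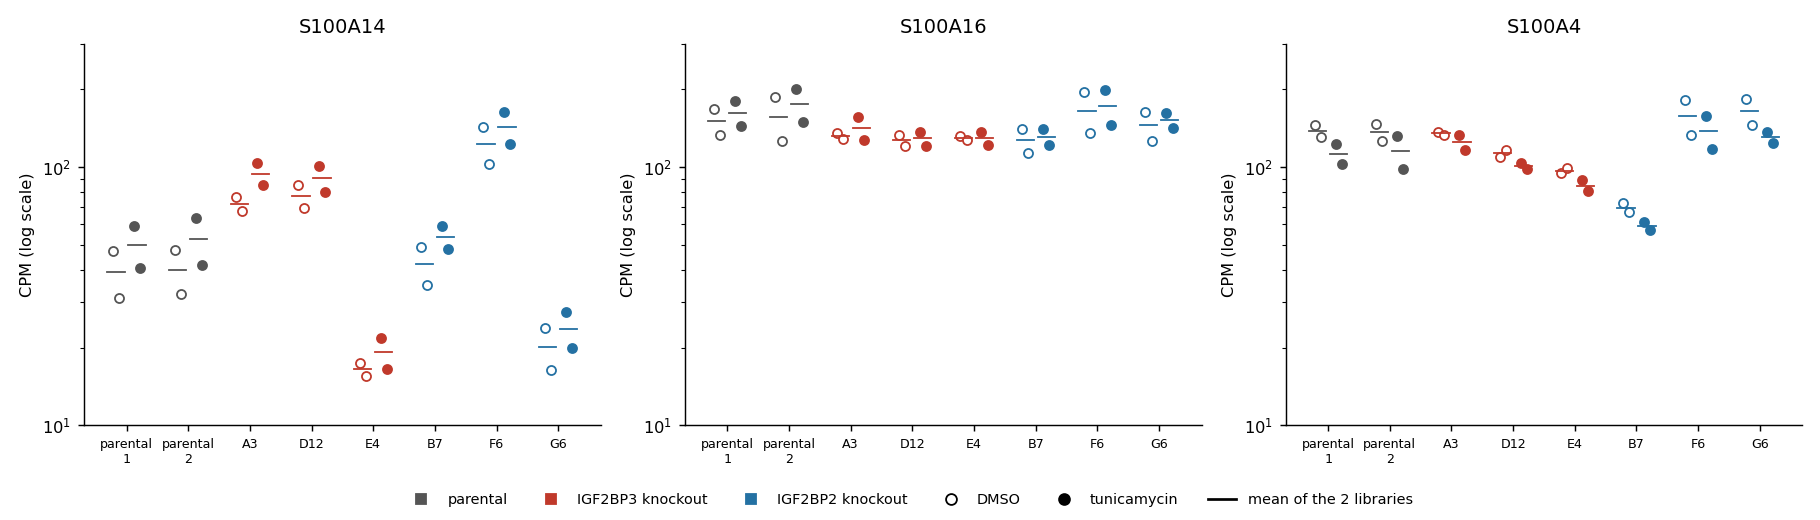
S100A14, S100A16 and S100A4 in each library (CPM, log axis) by line, with open points for DMSO, filled points for tunicamycin and lines at the mean of 2 libraries. S100A14 is lowest in E4 and G6 and highest in F6, its neighbour S100A16 spans a narrower range, and S100A4 is lowest in B7.

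S100A16, whose gene lies 1109 bases from S100A14, spanned a ratio of 1.32 between its highest and lowest line, and 22.5% of genes had a larger one. Its clones did not pass the test in the IGF2BP3 knockout (span 0.08, adjusted p = 0.689) or in the IGF2BP2 knockout (span 0.38, adjusted p = 0.0623). Over the 8 lines the log2 levels of S100A14 and S100A16 correlated with r = 0.24. S100A13, on the other side of S100A14, did not pass either (adjusted p = 0.832 and 0.341).

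S100A4, which binds non-muscle myosin, had the next largest ratio between lines, 2.29, which 1.35% of genes exceeded. In DMSO it held 145, 131, 147 and 126 CPM in parental libraries. The IGF2BP2 knockout clones held 72.7 and 66.8 CPM (B7), 182 and 133 (F6) and 184 and 146 (G6). B7 thus lay below all parental libraries. Replicate 1 of F6 and of G6 lay above the parental range, and replicate 2 of each lay within it. The IGF2BP3 knockout clones held 137 and 134 (A3), 110 and 117 (D12) and 94.6 and 99.0 (E4). S100A4 differed between clones in the IGF2BP2 knockout (span 1.20, adjusted p = 1.31e-06) and in the IGF2BP3 knockout (span 0.52, adjusted p = 0.000138), but not without B7 (adjusted p = 0.982) or without E4 (0.0617). B7 and F6, with the same guide, differed by 1.19 (adjusted p = 1.24e-05), and F6 and G6, with different guides, by 0.01 (adjusted p = 0.982).

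In all, 4 of 9 members differed between the IGF2BP3 knockout clones (S100A2, S100A4, S100A6 and S100A14), where 7.63% of genes did. Between the IGF2BP2 knockout clones 5 of 9 differed (these 4 and S100A10), where 26.4% of genes did. Between the 2 parental samples 0 of 9 differed by edgeR or DESeq2, and 0 of 9 had an unadjusted p under 0.05 (0.00% of 14398 genes were called). The S100A10 span between IGF2BP2 knockout clones was 0.33 (adjusted p = 0.00222, but 0.0522 without B7 replicate 1 and 0.471 without clone B7), with B7 highest. S100A2 and S100A6 were called at adjusted p = 0.0359 and 0.00835 in the first knockout and 0.0434 and 0.00778 in the second. Both calls in the IGF2BP3 knockout were lost without E4 (0.766 and 0.849) and both in the IGF2BP2 knockout without B7 (0.178 and 0.316). The S100A2 calls were also lost without A3 (0.161) in the first and without F6 (0.569) in the second. Leaving out 1 library ended the S100A2 calls without E4 replicate 1 (0.191), E4 replicate 2 (0.226) or A3 replicate 2 (0.11), and without either B7 library (0.0666 and 0.164), either F6 library (0.249 and 0.0508) or G6 replicate 2 (0.056). The S100A6 calls ended without either E4 library (0.0718 and 0.0727) and without B7 replicate 2 (0.0902).

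Pairs of clones show where these differences lie. A3 and D12 differed in 0 of 9 members (1.36% of genes called, and 1 of 9 members with an unadjusted p under 0.05 by edgeR). A3 and E4, with the same guide, differed in 4 of 9 (3.37% of genes), and D12 and E4 in 5 of 9 (9.30%). Among IGF2BP2 knockout clones, B7 and F6, with the same guide, differed in 6 of 9 (19.9%), B7 and G6 in 4 of 9 (11.7%), and F6 and G6 in 1 of 9 (11.0%), which was S100A14. S100A4, S100A6 and S100A14 differed in both pairs that hold E4 and in both that hold B7. S100A2 differed between A3 and E4 (adjusted p = 0.0336) and between B7 and F6 (0.00605), but did not pass between D12 and E4 (0.161) or between B7 and G6 (0.569).

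Each clone was then compared with the parental samples over both treatments, a comparison chosen after the data were seen, in which all clones share the parental libraries. S100A10 rose in all 3 IGF2BP3 knockout clones: by 0.33 in A3 (SE 0.0646, adjusted p = 0.0108), 0.30 in D12 (SE 0.0415, 0.000549) and 0.52 in E4 (SE 0.0508, 1.51e-05). It fell in F6 (-0.21, adjusted p = 0.013) and G6 (-0.30, 0.0192), and stood at 0.03 in B7 (0.787). Because these are the libraries that chose the gene, the S100A10 values are no independent evidence of its direction. S100A14 rose in A3 (0.87, adjusted p = 0.00197), D12 (0.91, 0.00106) and F6 (1.55, 1.19e-05), fell in E4 (-1.35, 7.54e-05) and G6 (-1.04, 0.00729), and stood at 0.07 in B7 (0.833).

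Clones E4 and B7, which share neither the targeted gene nor the guide, each had lower S100A2, S100A4 and S100A6. In E4 these fell by 0.54, 0.47 and 0.42 on the log2 scale (adjusted p = 0.00371, 0.000861 and 0.00452). In B7 they fell by 0.46, 0.97 and 0.47 (adjusted p = 0.00571, 9.91e-07 and 0.00111). S100A11, the annexin A1 partner, went opposite ways, up by 0.25 in E4 (adjusted p = 0.0402) and down by 0.29 in B7 (0.0179). The members called numbered 2 of 9 in A3 (3.54% of genes called), 2 in D12 (5.09%), 6 in E4 (11.9%), 4 in B7 (13.0%), 2 in F6 (13.2%) and 2 in G6 (1.25%).

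Several of these clone calls rest on 1 library. S100A10 lost its call in A3 without A3 replicate 1 (adjusted p = 0.161) or parental sample 1 replicate 2 (0.0523), in D12 without D12 replicate 1 (0.0589), in F6 without F6 replicate 2 (0.356) or parental sample 1 replicate 1 (0.0592), and in G6 without G6 replicate 2 (0.442) or parental sample 1 replicate 1 (0.107). S100A14 lost it in A3 and D12 without their replicate 1 (0.0559 and 0.0725) and in G6 without replicate 2 (0.261). S100A2 lost it in E4 without either E4 library (0.0578 and 0.0592) and in B7 without replicate 2 (0.132), and S100A6 in E4 without either E4 library (0.0585 and 0.0911). S100A11 lost it in B7 without either B7 library (0.11 and 0.186), and in E4 without either E4 library (0.368 and 0.13) or without replicate 2 of parental sample 1 (0.0656) or 2 (0.0917). The calls of S100A4 in E4 and B7, of S100A10 and S100A14 in E4, of S100A14 in F6 and of S100A6 in B7 were kept in each of these.

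**Figure D4:**
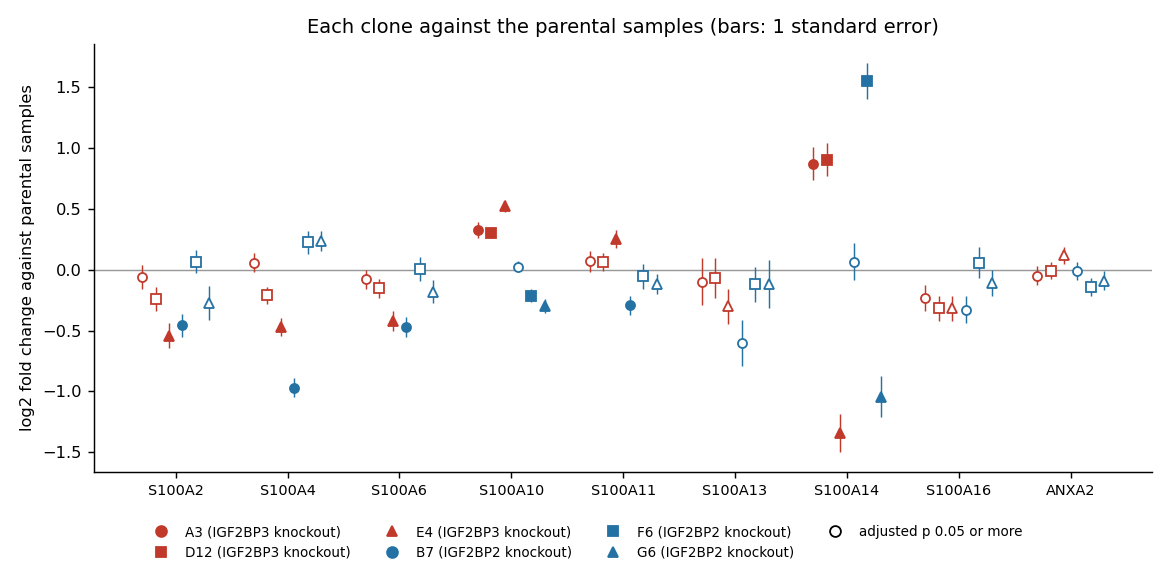
Log2 difference of each clone from the parental samples for the 9 genes, over both treatments, with bars of 1 SE and filled points for an edgeR adjusted p under 0.05. S100A10 is above 0 in the 3 IGF2BP3 knockout clones and below 0 in F6 and G6, and S100A14 takes both signs within each knockout.

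Tunicamycin moved 5 of the 9 transcripts, each by less than a log2 of 0.5. The response was first read within each pair of tunicamycin and DMSO libraries of the same line and replicate number, 16 pairs in all. S100A11 and S100A14 were higher with tunicamycin in 16 of 16 pairs, as were 13.1% of genes, and S100A4 and S100A10 lower in 16 of 16, as were 18.2%. S100A13 was higher in 12 of 16, but so were S100A6 and S100A16, and S100A2 was lower in 12 of 16, so this count does not set S100A13 apart. In a fit over all 8 lines, a comparison chosen after the data were seen, S100A11 rose by 0.23 (SE 0.0504, edgeR adjusted p = 0.000299), S100A14 by 0.31 (SE 0.0809, 0.00161) and S100A13 by 0.37 (SE 0.116, 0.00744). S100A4 fell by 0.21 (SE 0.0473, adjusted p = 0.000325) and S100A10 by 0.15 (SE 0.0356, 0.00054). These 5 of 9 calls stand beside 53.5% of 15622 genes called, a share near that of the members. S100A2 (-0.14, adjusted p = 0.0795), S100A6 (0.05), S100A16 (0.08) and ANXA2 (0.05) did not pass.

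By genotype the same genes gave fewer calls. In parental cells S100A4 fell by 0.27 (adjusted p = 0.0475) and S100A11 rose by 0.29 (0.0376), 2 of 9 members where 26.8% of genes were called. In the IGF2BP3 knockout S100A4 fell by 0.14 (0.0261), and S100A11 rose by 0.22 (0.0152) and S100A14 by 0.30 (0.0105), 3 of 9 where 33.8% were called. In the IGF2BP2 knockout S100A4 fell by 0.23 (0.0343) and S100A10 by 0.17 (0.0119), 2 of 9 where 40.1% were called. Values that missed the threshold were of like size: S100A14 stood at 0.37 in parental cells (adjusted p = 0.158) and 0.29 in the IGF2BP2 knockout (0.0628), S100A11 at 0.20 in the IGF2BP2 knockout (0.0584), and S100A10 at -0.14 in parental cells (0.0762) and -0.13 in the IGF2BP3 knockout (0.121). With replicate number added to the fit as a block, these values had edgeR adjusted p of 8.03e-06, 1.76e-06, 0.00556, 0.00859 and 0.0301, in the same order. In parental cells S100A13 (0.0308), S100A16 (0.0139) and ANXA2 (0.0316) passed with the block too, but not in either knockout. S100A2 and S100A6 did not pass with it in any genotype. The shares of all genes given above belong to the fit without the block, and the share with it is not given here. Whether the members gained more calls than all genes did can therefore not be read from these values. The labels do not say that replicate numbers mark pairs. The median over the members was 0.12, 0.05 and 0.04 in the 3 genotypes, and that over all genes -0.01 in each.

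The 7 calls made without the block were kept with it, but leaving out libraries in the fit without it ended all 7. In parental cells S100A4 lost its call without either library pair of sample 1 (adjusted p = 0.121 and 0.15) and S100A11 without replicate 1 of sample 1 (0.0842) or either replicate of sample 2 (0.0988 and 0.0772). In the IGF2BP3 knockout S100A4 and S100A11 lost theirs without D12 (0.105 and 0.101) or E4 (0.169 and 0.0838), and S100A14 without A3 (0.0625). In the IGF2BP2 knockout S100A4 and S100A10 lost theirs without B7 (0.133 and 0.0816), without G6 (0.18 and 0.0949), or without the 2 G6 control libraries whose treatment label is in conflict (0.172 and 0.103).

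The response did not differ detectably between genotypes. For the 3 comparisons of responses (IGF2BP3 knockout against parental, IGF2BP2 knockout against parental, and the knockouts against each other), edgeR and DESeq2 called 0 of 9 members, and 0 of 9 had an unadjusted p under 0.05. Over all genes 0.00% were called in each. For S100A10 the difference in response was 0.02 (SE 0.0908) in the IGF2BP3 knockout and -0.03 (SE 0.083) in the IGF2BP2 knockout, both against parental cells. A p that misses the threshold does not show that the responses were alike.

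**Figure D5:**
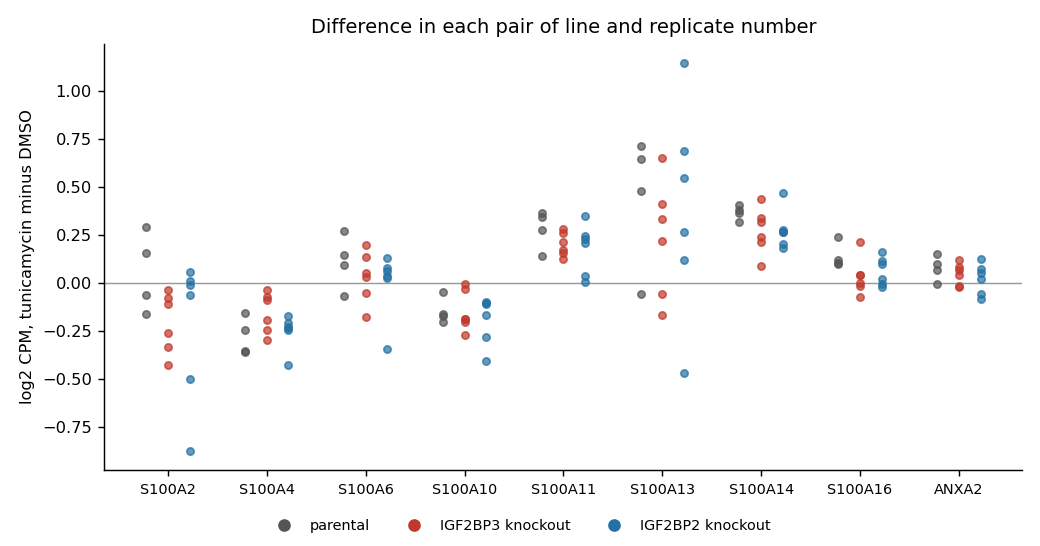
Log2 CPM with tunicamycin minus DMSO for each pair of line and replicate number (16 points per gene, coloured by genotype). S100A11 and S100A14 lie above 0 and S100A4 and S100A10 below 0 in all 16 pairs, and S100A13 has the widest scatter.

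The relatives of the 9 genes were read from lists. Of 12 other S100 genes 3 could be tested, and S100A7, S100A8, S100A9 and S100A12 had no count in any library, which allows up to 0.180 CPM in the shallowest (3 counts). In the comparisons by genotype, 1 of the 3 passed: S100A1, which overlaps S100A13 on the opposite strand, rose with tunicamycin in the IGF2BP2 knockout by 1.04 (SE 0.287, adjusted p = 0.00986) at a mean of only 1.04 CPM. Of 12 other annexins 9 could be tested. ANXA1, ANXA5 and ANXA6, calcium-dependent phospholipid-binding proteins like annexin A2, rose with tunicamycin in all 3 genotypes. The changes in parental cells, the IGF2BP3 knockout and the IGF2BP2 knockout were 0.57, 0.49 and 0.61 for ANXA1, 0.39, 0.42 and 0.40 for ANXA6, and 0.30, 0.28 and 0.27 for ANXA5. With ANXA7 in the IGF2BP3 knockout (0.15, adjusted p = 0.0475), 3, 4 and 3 of the 9 annexins passed, all of them higher, where 26.8%, 33.8% and 40.1% of all genes were called. ANXA2 itself did not pass in these fits, which had no replicate block. The annexins' median was 0.17, 0.05 and 0.07.

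Among 18 partners of S100 proteins and annexin A2, 15 could be tested. In the IGF2BP3 knockout against parental cells 1 of the 15 was called in DMSO and 2 with tunicamycin, all lower. Of all genes 1.61% and 0.718% were called. SYT1, the vesicle protein synaptotagmin, was among those lower with tunicamycin (-0.42, SE 0.0871, adjusted p = 0.0475). Of the annexins, ANXA10 was lower in DMSO in the same knockout (-1.55, SE 0.345, adjusted p = 0.0381), from 4.18 to 1.43 CPM, and it differed by up to 2.22 between the knockout's clones (5.88e-05). MYH9, the non-muscle myosin that S100A4 binds, rose with tunicamycin by 0.27, 0.23 and 0.22 in the 3 genotypes. SYT1 rose by 0.33, 0.30 and 0.37, and CACYBP, the calcyclin-binding protein that S100A6 binds, fell by 0.17, 0.18 and 0.20. In all, 4 partners rose and 1 fell in parental cells, 3 and 2 in the IGF2BP3 knockout, and 5 and 1 in the IGF2BP2 knockout. The partners' median was -0.03, -0.01 and 0.00.

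Genes without S100 names in the same stretch of chromosome 1 gave a local comparison. Of 16 such neighbours 14 could be tested. Between knockout and parental cells edgeR called 0 of the 14, with 2 at an unadjusted p under 0.05 for the IGF2BP3 knockout in either treatment and 0 or 1 for the IGF2BP2 knockout. With tunicamycin 4 rose and 2 fell in parental cells, 4 and 3 in the IGF2BP3 knockout, and 4 and 2 in the IGF2BP2 knockout. TUFT1 rose by 1.22, 1.10 and 1.21, and CGN, the tight junction protein cingulin, fell by 0.83, 0.77 and 0.77. Between clones 1 neighbour differed in the IGF2BP3 knockout and 3 in the IGF2BP2 knockout, and CGN was among them in both (spans 0.34 and 0.75). The median neighbour span, 0.11 and 0.17, was below that of all genes, 0.16 and 0.22, and the median of the 9 members, 0.23 and 0.47, above it. Other lists were above it too, so a wide spread between clones is not shown to be particular to the members: the median span was 0.72 and 1.11 for the 3 other S100 genes, 0.22 and 0.31 for the other annexins and 0.25 and 0.42 for the partners. Of the 9 other annexins, 4 and 6 differed between clones.

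The levels of some members ran together over the lines, and those of others ran opposite ways. Across the 8 line means the log2 levels of S100A2 and S100A6 correlated with r = 0.96 and rho = 0.90, S100A10 and ANXA2 with r = 0.78 and rho = 0.57, and S100A10 and S100A11 with r = 0.72. Pairs with a larger r than S100A10 and ANXA2 included S100A6 with S100A13 (0.85), S100A4 with S100A6 (0.84) and S100A2 with S100A16 (0.80). Negative pairs included S100A10 with S100A16 (-0.68) and S100A4 with ANXA2 (-0.61). Of the 8 points, 6 are clones of the 2 knockouts and 2 are samples of the parental cells, so they are not independent, and these values are descriptions. The genes most like S100A10 over the 32 libraries, by Pearson's r of log2 CPM among 8834 genes at 10 CPM or more, included H2AX (0.894), PLK1 (0.891), METTL16 (0.884) and PTTG1 (0.878). Those most like ANXA2 were UBA1 (0.921), SF1 (0.904), RTN3 (0.893), PRPF6 (0.889) and PSMD4 (0.888). The libraries share lines, treatments and replicate numbers. The replicate 1 library of a line and treatment held more than the replicate 2 library in 16 of 16 pairs for S100A11 (median log2 difference 0.20), S100A14 (0.43), S100A16 (0.30) and ANXA2 (0.20), and in 15 of 16 for S100A10 (0.15), while S100A13 was higher in replicate 2 in 13 of 16. With treatment and replicate means subtracted, the r with ANXA2 became 0.817 for UBA1, 0.789 for SF1, 0.774 for RTN3, 0.879 for PRPF6 and 0.767 for PSMD4, and PRPF6 alone of these stayed among the 5 genes most like it. The r with S100A10 became 0.917 for H2AX, 0.940 for PLK1, 0.879 for METTL16 and 0.873 for PTTG1. H2AX and PLK1 stayed among the 5 genes most like S100A10, and METTL16 and PTTG1 did not. Differences between lines and genotypes were not subtracted. The contrast that chose S100A10 therefore remains in its r values, which are descriptions.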

How the data were processed

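Poly(A) RNA of 32 HCT116 libraries was read as deposited counts per gene made by the authors. Reads were aligned with STAR 2.7.5c to hg38, per the submitters' processing notes. The counting tool, annotation and strand setting are not given in the sources used here. Groups came from the sample titles and treatment labels. Of 60660 gene identifiers 60463 matched a symbol, and positions and exon lengths came from GENCODE 29. Each comparison was fitted over its own libraries and all genes kept by filterByExpr, with TMM scaling and edgeR's quasi-likelihood test (R 4.3.3, edgeR 4.0.16, limma 3.58.1), and p-values were adjusted by Benjamini-Hochberg over all genes tested, with a threshold of 0.05. CPM values are TMM-scaled, and log2 CPM uses a prior count of 2. Differences between clones used an F test with treatment as a term. Alternatives were DESeq2 1.42.0, its size factors in edgeR, no filter, a replicate block, all 32 libraries in a fit, counts summed per line, and leaving out libraries or clones. The fits were tested on simulated data. No pair of replicate libraries agreed within sampling noise (chi-square per degree of freedom 4.59 to 25.2), so none was counted as deposited more than once. The members, the gene lists and the rule for naming list genes (those called, with a mean of at least 1 CPM, largest change first) were chosen with earlier results of these data known. Some genes that these rules would name are not reported here. Counting error limits precision where counts are low, and the replicate libraries also differed by more than counting error.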

Additional observations from a re-analysis of the deposited data

Results flagged for a closer look

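In the IGF2BP2 knockout with tunicamycin, the library of clone F6 replicate 1 held 69.0 CPM of S100A11, and the nearest of the other 5 libraries held 55.6 CPM. The gap made up 0.643 of the group's whole range, above the 95% critical value of Dixon's test for 6 samples. It was the 1 of 54 sets of member and group that stood out in this way, and chance alone would mark about 1 in 20.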

How the results depend on the processing

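Over the members and comparisons 2610 alternative values were computed: 97 gained a call, 75 lost one, and 2420 kept their side of the threshold and did not change sign by more than a standard error, though 95 of them crossed 0 within it. The other 18 changed sign by more than that, and none of these was called. With clones left out in turn, several values crossed 0. In the IGF2BP2 knockout against parental cells in DMSO, S100A2 ran from -0.171 to 0.0882 and S100A4 from -0.282 to 0.228 (highest without B7), and S100A14 from -0.363 (without F6) to 1.05. With tunicamycin S100A4 ran from -0.248 to 0.249 and S100A14 from -0.387 to 0.956. The response of S100A2 in that knockout ran from -0.334 to 0.0191 (without G6) and was 0.0214 without the G6 control libraries, and its difference in response between the knockouts ran from -0.212 to 0.137 and was -0.212. In the comparisons of clones with parental samples, chosen after the data were seen, leaving out 1 library gave -0.0907 to 0.224 for S100A11, -0.515 to 0.230 for S100A13 and -0.154 to 0.0626 for ANXA2 in A3, and -0.136 to 0.244 for S100A14 in B7. In F6 it gave -0.184 to 0.204 for S100A6, -0.188 to 0.295 for S100A16 and -0.263 to 0.155 for S100A11. In G6 it gave -0.493 to 0.168 for S100A13 and -0.247 to 0.0130 for S100A16.

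Counts of members called moved as follows, and the cause was not tested. The share of all genes called under each setting is not given beside them. Whether the members moved more than all genes can therefore not be read from these counts. In the IGF2BP3 knockout against parental cells in DMSO the 1 called became 3 without the filter, 0 with all 32 libraries in a fit and 0 with counts summed per line, and 1 to 2 with libraries or clones left out. With tunicamycin the 0 called became 2 by DESeq2, 2 without the filter, 2 with the replicate block, 1 with all 32 libraries, and 0 to 1 with clones left out. For tunicamycin in parental cells the 2 called became 1 with DESeq2 size factors, 7 with the replicate block, 6 with counts summed and 0 to 2 with libraries left out. In the IGF2BP3 knockout the 3 became 0 with all 32 libraries, 5 with counts summed and 1 to 3 with clones left out. In the IGF2BP2 knockout the 2 became 4 by DESeq2, 4 without the filter, 4 with the replicate block, 5 with counts summed, 0 without the G6 control libraries and 0 to 2 with clones left out. The 4 members that differed between IGF2BP3 knockout clones became 7 with the replicate block and 0 to 7 with libraries or clones left out, and the 5 between IGF2BP2 knockout clones 8 and 1 to 6. Against parental samples, the 2 in A3 became 0 to 3 with libraries left out. The 2 in D12 became 4 without the filter, 4 with the block and 0 to 4. The 6 in E4 became 3 to 6. The 4 in B7 became 2 with all 32 libraries. The 2 in F6 became 4 with the block, 1 with all 32 libraries and 1 to 2, and the 2 in G6 became 4 without the filter, 1 with all 32 libraries, 0 without the G6 control libraries and 0 to 2.

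The labels do not say what the replicate numbers share. Of 120 pairs of same-numbered libraries 118 had deviations correlated above 0.1 (lowest 0.06, median 0.48), so pairing was not established by every pair, and the block values above are given as an alternative only. S100A10 in the IGF2BP3 knockout with tunicamycin had an adjusted p of 0.0083 with the replicate block, in libraries that entered the contrast that chose it. Depth limits S100A13 most.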

Other observations

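In the fit over all 8 lines, chosen after the data were seen, relatives of the 9 genes were also read. Of the 9 annexins tested 5 passed (edgeR, adjusted p under 0.05), where 53.5% of all genes did: ANXA1 rose by 0.55 on the log2 scale (adjusted p = 4.42e-12), ANXA6 by 0.40, ANXA5 by 0.28 and ANXA7 by 0.13, and ANXA10 fell by 0.26 (0.0028). Among the 3 other S100 genes tested, S100A1 rose by 0.74 (adjusted p = 0.00323) and S100A3 fell by 0.27 (0.00855). S100A3 overlaps S100A4 on the same strand and S100A1 overlaps S100A13 on the other, and each pair took the same sign. The part of shared reads in this was not tested.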
